A study of Mus musculus with 6 samples.

Results

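The genes described here are those of the vascular endothelial growth factor (VEGF) system: the ligands Vegfa, Vegfb, Vegfc and Pgf, the receptors Kdr and Flt1, and the co-receptors Nrp1 and Nrp2. They were read from every probe set of the array whose platform annotation gives 1 of these 8 symbols, which made 20 of the 45037 probe sets tested. The genes were selected on their measured log2 intensities in E-FABP knockout against wild-type macrophages, so their values in that comparison are a description, given without p-values. The knockout group held 3 cultures of macrophages from mice without E-FABP (epidermal fatty-acid-binding protein, a lipid carrier encoded by Fabp5), and the wild-type group held 3 cultures from wild-type mice. All 6 were described as C57BL/6, came from the bone marrow of naive mice aged 6 to 8 weeks, and had 7 days of culture in 20 ng/ml GM-CSF, the growth factor that turns marrow cells into these macrophages. All 6 were then kept for 18 h beside an equal number of E0771 mouse breast tumour cells held in an insert, so no culture without tumour cells is compared here. RNA came from the whole culture. The labels call the 3 cultures of a genotype biological replicates but do not tie each to its own animal, and they do not say how the knockout allele was made.

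VEGF ligands are secreted proteins that bind receptor tyrosine kinases, chiefly on blood and lymph vessel cells, and drive the growth of new vessels. Kdr carries most of the growth signal of VEGF-A, while Flt1 binds VEGF-A tightly with a weak kinase and also binds VEGF-B and placental growth factor. Neuropilins have no kinase of their own: they hold VEGF for the receptors and also bind secreted semaphorins. Macrophages in tumours are known as a source of VEGF-A and can themselves carry Flt1 and neuropilins.

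RefSeq held an entry for the region before the transcription start of all 8 genes. The 250 bases before the start are shown for the 3 receptor and co-receptor genes with a called probe set. Those of Vegfa, the ligand that the 3 share, are shown as well. Capitals mark GC boxes (GGGCGG or its reverse complement), the kind of site bound by Sp1-family factors. On build GRCm38.p6 they lie at chr5:75978456-75978705, minus strand (Kdr), chr5:147726012-147726261, minus strand (Flt1), chr8:128358823-128359072, plus strand (Nrp1) and chr17:46032378-46032627, minus strand (Vegfa), each written 5′ to 3′ on the gene's own strand.
Kdr: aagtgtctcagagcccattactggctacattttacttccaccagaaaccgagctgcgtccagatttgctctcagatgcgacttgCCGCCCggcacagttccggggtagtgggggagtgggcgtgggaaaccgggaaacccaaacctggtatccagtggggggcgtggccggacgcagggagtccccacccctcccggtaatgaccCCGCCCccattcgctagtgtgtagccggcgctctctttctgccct
Flt1: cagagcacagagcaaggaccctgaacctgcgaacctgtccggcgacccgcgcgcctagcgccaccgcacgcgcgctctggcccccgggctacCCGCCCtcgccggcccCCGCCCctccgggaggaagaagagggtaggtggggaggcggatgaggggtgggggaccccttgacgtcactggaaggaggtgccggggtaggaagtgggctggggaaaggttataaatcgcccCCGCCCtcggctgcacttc
Nrp1: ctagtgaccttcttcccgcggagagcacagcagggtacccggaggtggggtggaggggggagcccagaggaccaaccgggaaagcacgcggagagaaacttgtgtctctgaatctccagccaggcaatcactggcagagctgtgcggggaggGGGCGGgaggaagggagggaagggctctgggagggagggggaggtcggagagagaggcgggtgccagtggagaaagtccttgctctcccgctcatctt
Vegfa: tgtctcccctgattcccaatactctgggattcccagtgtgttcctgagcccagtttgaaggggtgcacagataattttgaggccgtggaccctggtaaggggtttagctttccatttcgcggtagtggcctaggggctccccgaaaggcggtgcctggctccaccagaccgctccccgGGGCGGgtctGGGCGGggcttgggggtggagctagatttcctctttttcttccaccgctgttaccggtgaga
Both strands were searched, and adjacent boxes may overlap. Of the 10 such windows of the 8 genes, 9 held a GC box, as did 32.7% of all 32851 windows of this length. The hypoxia response core ACGTG was in 1 of the 10, the second Vegfa start (16.6% of all windows). The interferon-stimulated response element, searched as GAAA, any 2 bases and GAAA, was in 1, the first Vegfa start (2.98% of all windows), and the gamma-activated site TTCNNNGAA was in 0 (7.02%). The nuclear receptor half-site AGGTCA was in the Nrp1 and Vegfb windows (14.0% of all windows), and the ETS core GGAAG was in 5 of the 10 (64.1%). These are letter matches in short windows and not sites shown to be used.

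Kdr differed most, at 1.79-fold lower in knockout cultures, followed by a probe set of Flt1 (1.41-fold lower) and a probe set of Nrp1 (1.39-fold lower). These were the called members, 3 of the 13 receptor and co-receptor probe sets, and the genotypes did not overlap for 9 of the 13. The 4 Nrp2 probe sets had means 1.15-fold to 1.21-fold lower in knockout, and 0 were called. Of the 7 ligand probe sets 0 were called: a Vegfa probe set had a mean 1.21-fold lower in knockout and the brighter one 1.05-fold, the 3 of Vegfc 1.17-fold to 1.39-fold, and Pgf 1.08-fold. The Vegfb means differed by less than the SD within either genotype. In the limma fit over all probe sets, 3 of the 20 were called lower (Benjamini-Hochberg adjusted p under 0.05) and 0 were called higher, where 1.7% of all probe sets were called lower, 2.06% higher and 3.75% either way. The mean was lower in knockout for 20 of 20, against 51.2% of all probe sets, and for 13 of 20 the genotypes did not overlap, with knockout lower, against 11.1% of all. The median difference was -0.23 on the log2 scale over the 20 and -0.00395 over all probe sets. Nothing is read from these counts, since the genes were picked with the comparison in view and probe sets of a gene share its RNA.

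**Figure D1:**
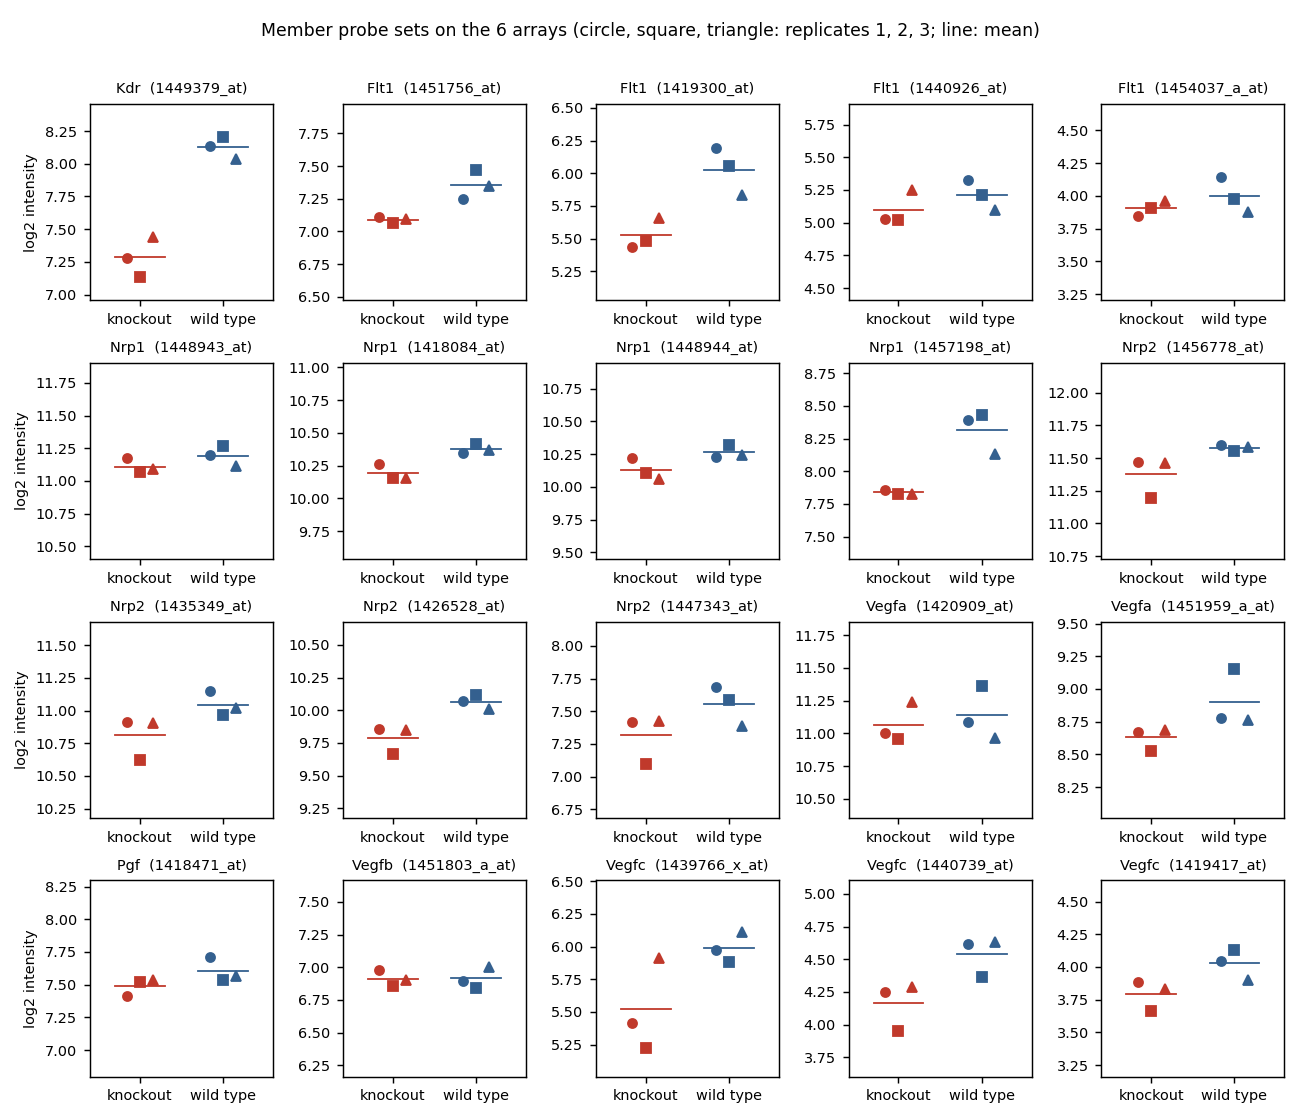
Log2 intensity of the 20 member probe sets on each array, knockout left of wild type, every panel spanning the same range of log2 units. Symbols are replicates and lines are means of 3; the groups lie farthest apart for Kdr, and the Vegfb values overlap.

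Kdr was represented by 1 probe set (1449379_at). It read 7.28, 7.14 and 7.44 (log2 intensity) in knockout replicates 1, 2 and 3, against 8.13, 8.20 and 8.04 in wild-type replicates 1, 2 and 3. All 3 knockout cultures lay below all 3 wild-type cultures, with a gap of 0.60 between the nearest values, which is wider than the SD within either genotype. The means were 7.29 ± 0.15 in knockout and 8.12 ± 0.08 in wild type (SD, n = 3 each), a difference of -0.84 with a limma SE of 0.09. Both means lie above 5.63, the median of all values. The probe set was among those called lower, but not when knockout replicate 1 was left out, where the difference was -0.84 as well. Leaving out any other array kept both the direction and the call, with differences between -0.92 and -0.77. With a floor at the 20th percentile of all values, 4.07, the Kdr probe set was not called either. All of its values lie above that floor, and its difference stayed at -0.84. Calls over all probe sets went from 1691 to 71 with the floor.

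Flt1 had 4 probe sets, and they disagreed in size. The probe set 1419300_at read 5.44, 5.49 and 5.66 in knockout, against 6.19, 6.06 and 5.83 in wild type. The groups did not overlap, and the knockout mean of 5.53 ± 0.12 lay just under the median of all values, where the wild-type mean was 6.03 ± 0.18 (SD, n = 3 each). Its difference of -0.50 (SE 0.10) was called lower, but not when replicate 1 (-0.46) or 2 (-0.48) of the knockout or replicate 1 (-0.42) or 2 (-0.49) of the wild type was left out. The brightest Flt1 probe set, 1451756_at, read 7.11, 7.06 and 7.10 in knockout, against 7.24, 7.47 and 7.35 in wild type. These groups did not overlap either, but the difference of -0.27 (SE 0.08) was smaller and was not called. The remaining Flt1 probe sets were dimmer, overlapped between genotypes and differed by -0.11 (SE 0.09) and -0.09 (SE 0.08). Without wild-type replicate 1 these were -0.05 and -0.02. Flt1 makes a full-length receptor and a soluble decoy from the same gene, and which form each probe set reads was not looked up here.

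Nrp1, which serves VEGF-A and semaphorins as a co-receptor, had 3 bright probe sets and a dimmer one. The dimmer probe set, 1457198_at, read 7.86, 7.83 and 7.83 in knockout, against 8.39, 8.43 and 8.13 in wild type. The knockout values were tightly grouped (SD 0.02) and lay below all wild-type values (SD 0.16). Its difference of -0.48 (SE 0.09) was called lower, but this call was lost when any array other than wild-type replicate 3 was left out, with differences between -0.49 and -0.42. The 3 bright probe sets differed by -0.19 (SE 0.07), -0.13 (SE 0.07) and -0.09 (SE 0.07) and were not called. The brightest of them overlapped, at 11.17, 11.07 and 11.09 in knockout against 11.20, 11.27 and 11.11 in wild type, and its difference was -0.05 without wild-type replicate 2. Within each array the dimmer probe set minus this brightest probe set was -3.31, -3.24 and -3.26 in knockout and -2.81, -2.84 and -2.98 in wild type. The spacing of these probe sets was thus wider on every knockout array, so they did not report the same change. As a mean of its 4 probe sets, Nrp1 differed by -0.22 (SE 0.06) and was not called, where the brightest alone gave -0.09.

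Nrp2, the co-receptor best known from lymphatic vessels and semaphorin signalling, also had 4 probe sets, and these agreed in size. Their differences lay between -0.28 and -0.20, and 0 of the 4 were called. The probe set 1426528_at read 9.86, 9.66 and 9.85 in knockout, against 10.07, 10.11 and 10.01 in wild type, a difference of -0.28 (SE 0.08). The groups did not overlap for this and another 2 of the 4. Knockout replicate 2 was the lowest array for each of the 4 Nrp2 probe sets, and in the brightest it read 11.20 where the other knockout cultures read 11.47 and 11.46. Without that array the differences of the other 3 probe sets shrank to -0.11, -0.14 and -0.13, against -0.20, -0.23 and -0.24 with all arrays.

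**Figure D2:**
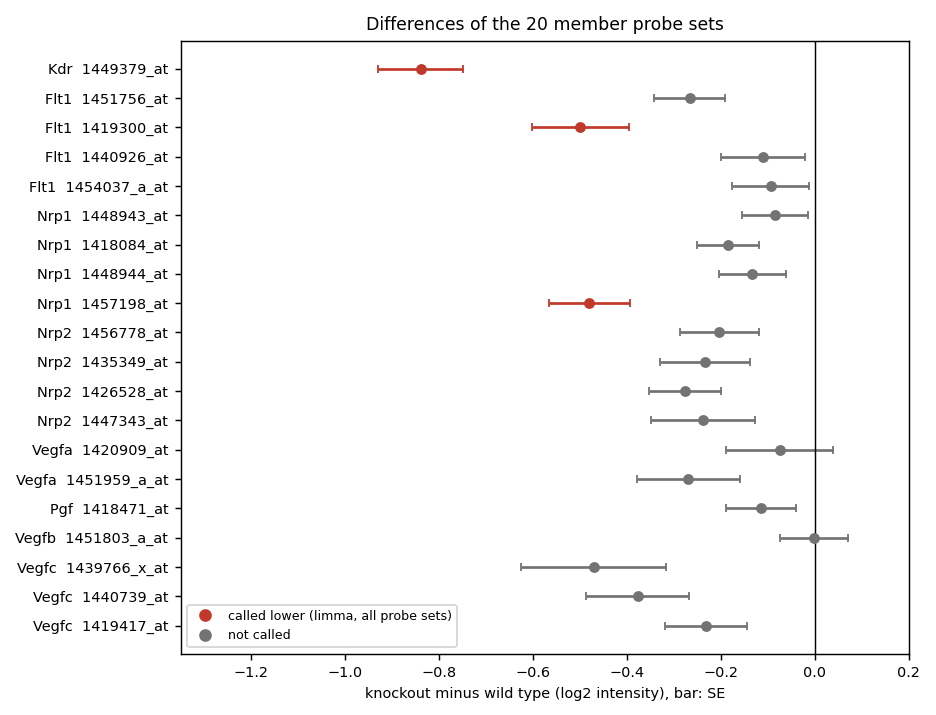
Difference between knockout and wild type (log2 intensity, horizontal axis) for each member probe set, with the limma SE as a bar; filled red points were called lower. Kdr stands farthest from 0 at -0.84, the 4 Nrp2 points lie together and the Flt1 and Nrp1 points are spread.

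Vegfa, the main angiogenic ligand, was measured by 2 probe sets that were both above the median of all values. The brighter, 1420909_at, read 11.00, 10.96 and 11.24 in knockout, against 11.09, 11.36 and 10.97 in wild type. The genotypes overlapped, and the difference of -0.08 (SE 0.11) was smaller than the spread within either group. Without wild-type replicate 2, the highest array, its sign turned (0.04), and without each other array it lay between -0.16 and -0.02. The other probe set, 1451959_a_at, read 8.67, 8.53 and 8.69 in knockout, against 8.78, 9.15 and 8.76 in wild type. Here the groups did not overlap, though by a gap of only 0.08, and the difference was -0.27 (SE 0.11). It was not called, and without wild-type replicate 2 it was -0.14. Wild-type replicate 2 was thus the highest array in both Vegfa probe sets.

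Pgf codes for placental growth factor, a ligand of Flt1 that acts in inflammation and tumour vessels. Its probe set read 7.41, 7.52 and 7.53 in knockout, against 7.71, 7.53 and 7.57 in wild type. The groups nearly touched without overlapping, and the difference of -0.12 (SE 0.07) was not called. Leaving out knockout replicate 1 gave -0.08, and leaving out wild-type replicate 1 gave -0.06. Vegfb, a ligand of Flt1 with little angiogenic action of its own, read 6.98, 6.86 and 6.90 in knockout, against 6.89, 6.84 and 7.01 in wild type. The genotypes overlapped fully and the difference was 0.00 to 2 decimals (SE 0.07), with the sign turning under median centring.

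Vegfc, the ligand of lymphatic vessel growth that acts through Flt4 and Kdr, gave signals near or under the median of all values. The probe set 1439766_x_at read 5.42, 5.23 and 5.91 in knockout, against 5.97, 5.89 and 6.11 in wild type. Knockout replicate 3 reached into the wild-type range, and the difference of -0.47 (SE 0.15) was not called. Without knockout replicate 3 it was -0.67 and called. The other Vegfc probe sets did not overlap between genotypes, with differences of -0.38 (SE 0.11) and -0.23 (SE 0.09), and were not called. Their means, at most 4.54 in either genotype, lie under the median of all values. Those of 1419417_at (3.79 in knockout and 4.03 in wild type) also lie under the 20th percentile, 4.07, and with values raised to that floor its difference was -0.02.

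Across the 20 probe sets, knockout replicate 2 was the lowest of the 6 arrays 14 times, knockout replicate 1 was lowest 3 times, knockout replicate 3 was lowest 2 times and wild-type replicate 2 was lowest 1 time. The highest array was wild-type replicate 2 in 10 probe sets, wild-type replicate 1 in 7 and wild-type replicate 3 in 3. Mean deviations from each probe set's 6-array mean were -0.11, -0.23 and -0.05 for knockout replicates 1, 2 and 3, and 0.16, 0.16 and 0.07 for wild-type replicates 1, 2 and 3. The count of called members was 3 with all arrays, 0 when knockout replicate 1 was left out, and 1 (Kdr) when knockout replicate 2 or wild-type replicate 1 or 2 was. Leaving out the third culture of either genotype again gave 3, with Vegfc in place of Nrp1 where it was the knockout one. Knockout replicate 2 was also the array with the lowest neutrophil, macrophage and epithelial marker levels and the highest dendritic cell marker level.

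**Figure D3:**
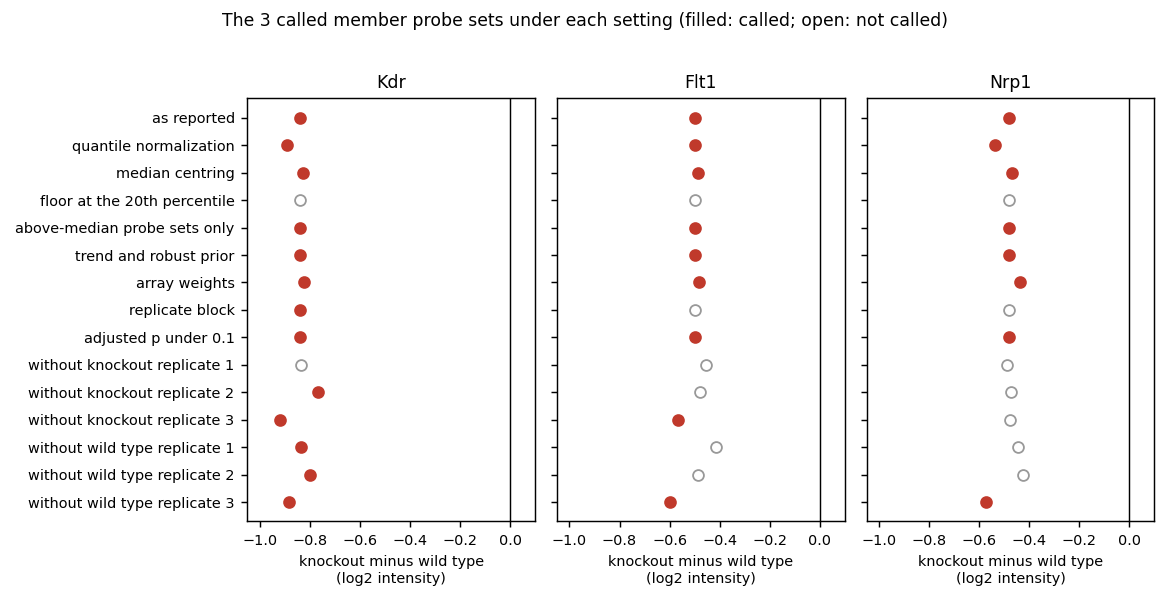
Difference between knockout and wild type (log2 intensity) of the called Kdr, Flt1 and Nrp1 probe sets under each setting of the analysis; filled points were called and open points were not. All points lie left of 0, and the Kdr point is open for the floor at the 20th percentile and without knockout replicate 1.

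The arrays passed the basic checks of their labels. Fabp5 itself read 8.27 ± 0.13 in knockout against 14.44 ± 0.03 in wild type at its brightest probe set (SD, n = 3 each; limma adjusted p = 1.96e-09). Array medians lay between 5.60 and 5.64. All 10 macrophage markers lay above the median of all values, with mean levels per culture of 11.62 to 11.82 in knockout and 11.90 to 11.94 in wild type. Of these markers 2 fell, Fcgr1 (-1.13, SE 0.19) and Mertk (-0.46, SE 0.08; limma adjusted p = 0.0227 and 0.0234), and 0 rose. Over all 18193 genes, 2.05% were called lower and 2.85% higher. The median difference of the 10 markers was only -0.06. Means were lower in knockout for 7 of them and higher for 3, among them Mrc1 (0.16, SE 0.07).

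Markers of other cells that make or carry VEGF genes were read on the same arrays, because in RNA from a whole culture fewer cells of a type and less RNA per cell cannot be told apart. Of 14 endothelial markers, 9 lay at or under the median of all values and 0 were called by limma. An unadjusted p under 0.05 gave 2 lower and 1 higher. Counts at an unadjusted p, here and below, come without the share over all genes, which was not taken, and are not read as results. Such p-values were common: the signalling gene Nck1, at an unadjusted limma p of 0.0498, had an adjusted p of 0.247. The mean level of the endothelial markers per culture spanned 5.27 to 5.35 in knockout and 5.33 to 5.37 in wild type. Tek, Tie1, Pecam1, Cldn5, Emcn, Robo4, Sox17, Ptprb and Mmrn2 lay under the median of all values, and Vwf, Egfl7, Esam, Cdh5 and Erg lay above it. Vwf, the clotting protein von Willebrand factor, read 8.66 ± 0.15 in knockout and 8.36 ± 0.04 in wild type (SD, n = 3 each; limma adjusted p = 0.0883), with every knockout culture higher. The junction cadherin Cdh5 read 5.83 ± 0.15 in knockout and 6.23 ± 0.16 in wild type (SD, n = 3 each; limma adjusted p = 0.065), with every knockout culture lower. Every knockout culture lay below every wild-type culture for 2 of the 14, Cdh5 and the dim Emcn, against 11.2% of all genes. The reverse held for 1, Vwf, against 20.7% of all genes. Of 10 fibroblast markers 3 fell, Col1a2 (-1.29, SE 0.11), Dcn (-1.10, SE 0.14) and Col3a1 (-0.48, SE 0.08), and 0 rose. Over all genes 2.05% were called lower. Col3a1 was dim, at 3.79 in knockout and 4.27 in wild type, near the 20th percentile of 4.07. Means were lower in knockout for 8 of the 10 and higher for 2, Fn1 (0.25, SE 0.11) and Thy1 (0.13, SE 0.09). The mean level of the fibroblast markers was 5.54 to 5.65 in knockout and 5.97 to 6.05 in wild type. At or under the median of all values were 6 of the 10. Neutrophil markers had mean levels of 8.03 to 8.63 in knockout and 8.77 to 9.04 in wild type. In mean level the highest knockout culture lay below the lowest wild-type culture. Of these 9 markers 0 were called by limma, with 7 lower at an unadjusted p under 0.05. Every knockout culture lay below every wild-type culture for 5 of the 9, against 11.2% of all genes. Dendritic cell markers had mean levels of 8.00 to 8.30 in knockout and 7.88 to 7.96 in wild type. Of these 12 markers 1 rose, the transcription factor Batf3 (0.53, SE 0.11), where 2.85% of all genes were called higher. An unadjusted p under 0.05 gave 5 higher and 0 lower. Means were higher in knockout for 9 of the 12 and lower for 3, Xcr1, Siglech and Cd209a. Epithelial markers, which tumour cells would carry, had mean levels of 5.57 to 5.66 in knockout and 5.59 to 5.68 in wild type, and mast cell markers 5.58 to 5.74 and 5.59 to 5.68. Of 8 epithelial markers 0 were called by limma, with 1 lower at an unadjusted p under 0.05. Of 8 mast cell markers 1 fell, the histamine enzyme gene Hdc (-0.40, SE 0.07), and 0 rose. Mast cell marker means were lower in knockout for 4 of the 8 and higher for 4, among them Kit (0.59, SE 0.15, limma adjusted p = 0.0669). Mean marker levels were lower in knockout for fibroblast, neutrophil and macrophage lists and higher for the dendritic cell list. What part these had in the VEGF gene differences was not tested.

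**Figure D4:**
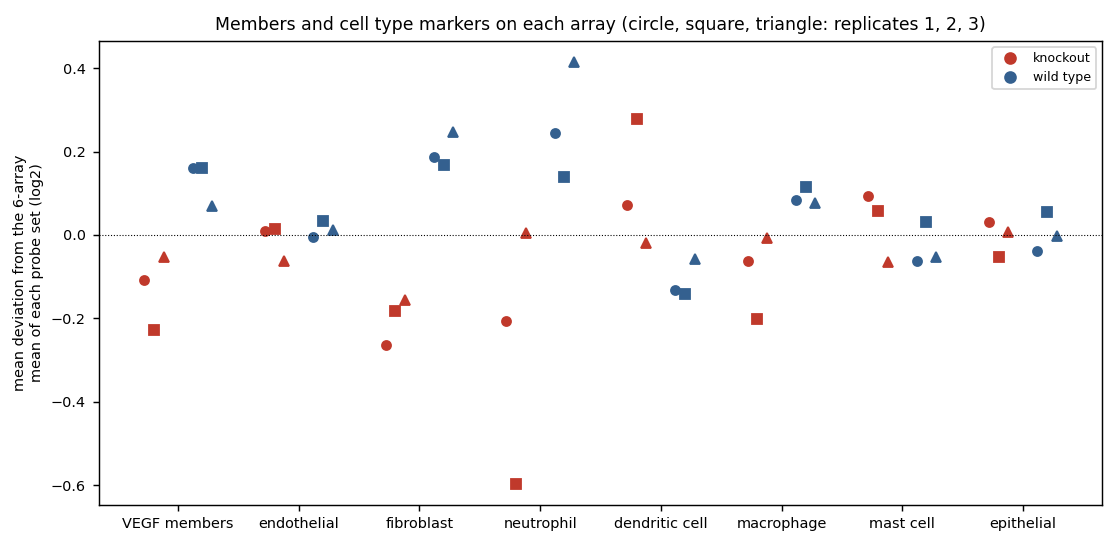
Mean deviation of each array from the 6-array mean of each probe set (log2 units) for the VEGF members and 7 marker lists, knockout left of wild type, with symbols for replicates. The means of the fibroblast, neutrophil and macrophage lists lie lower on every knockout array, as does the mean of the VEGF members. The dendritic cell mean lies higher, and the endothelial, epithelial and mast cell means overlap. Single markers need not follow their list: of the 10 macrophage markers, knockout lay below wild type on all arrays for 2 and above for 2.

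The list of partners of these receptors held 16 measured genes: the secreted semaphorins and plexins, Sema6d, the adaptor Gipc1, the receptor Flt4 and the ligand Vegfd. Of these 1 rose, 0 fell and 15 did not pass, where 2.85% of the 18193 genes were called higher, 2.05% lower and 4.9% either way, and the median difference was -0.10, against 0.01 over all genes. The mean was lower in knockout for 11 of the 16, against 46.9% of all genes. Every knockout culture lay below every wild-type culture for 5 of the 16, against 11.2% of all genes, and above for 2, against 20.7%. Sema6d, a membrane semaphorin whose plexin receptor can pair with Kdr in the developing chick heart, read 9.46, 9.83 and 9.25 in knockout, against 8.89, 8.71 and 8.97 in wild type. Every knockout culture was above every wild-type culture, and the difference was 0.66 (SE 0.14, limma adjusted p = 0.0374). Sema3c differed by -0.30 (SE 0.09, limma adjusted p = 0.111), the semaphorin receptor Plxnd1 by 0.17 (SE 0.08, limma adjusted p = 0.267) and Sema3b by -0.16 (SE 0.07, limma adjusted p = 0.283). Flt4, the lymphatic VEGF receptor, differed by -0.19 (SE 0.11) and did not pass. The list's count dropped to 0 when any array other than knockout replicate 3 was left out, and was 2 when that array was.

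Signalling genes that act behind VEGF receptors in many cell types included 2 that rose, among 22 measured, and 0 that fell. Over all genes 2.85% were called higher and 2.05% lower. An unadjusted p under 0.05 gave 6 higher and 3 lower. The mean was higher in knockout for 15 of the 22 and lower for 7. Nfatc1, a calcium-driven transcription factor, read 7.99, 8.08 and 8.08 in knockout, against 7.70, 7.60 and 7.74 in wild type, a difference of 0.37 (SE 0.07, limma adjusted p = 0.0282). Prkcb, a protein kinase C that VEGF receptors activate, read 11.45, 11.52 and 11.38 in knockout, against 11.17, 11.04 and 11.07 in wild type, a difference of 0.36 (SE 0.07, limma adjusted p = 0.0335). For both genes all knockout cultures lay above all wild-type cultures. This held for 5 of the 22 genes, against 20.7% of all genes, and the reverse for 2, against 11.2%. The kinases Bmx (0.30, SE 0.11) and Prkca (0.31, SE 0.12) did not pass. The list's median was 0.08. Leaving out any array other than knockout replicate 3 took its count to 0, and leaving out that array took it to 1.

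Hypoxia-inducible factors, which raise Vegfa when oxygen is low, and the genes that control them gave 0 calls among 12 by limma, where 1 higher and 1 lower had an unadjusted p under 0.05. The ubiquitin ligase Siah1a differed by 0.20 (SE 0.07), the co-activator antagonist Cited2 by -0.41 (SE 0.15), the co-activator Ep300 by -0.14 (SE 0.07) and Vhl, which marks the factors for destruction, by 0.18 (SE 0.09). Their limma adjusted p-values lay between 0.14 and 0.335. The factor Hif1a itself read 13.12 ± 0.13 in knockout and 13.27 ± 0.10 in wild type (SD, n = 3 each). Its difference of -0.15 (SE 0.09) did not pass, and the list's median was 0.03.

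Other angiogenic factors gave 0 calls among 22 by limma, while 3 lower and 1 higher had an unadjusted p under 0.05, and the median was -0.07. Hbegf, an epidermal growth factor family ligand made by macrophages, read 9.06, 8.41 and 8.87 in knockout, against 9.33, 10.02 and 9.41 in wild type. The groups did not overlap, but the spread was wide and the difference of -0.81 (SE 0.20) missed the threshold (limma adjusted p = 0.0611). Angpt1, a vessel-stabilising ligand of Tek, was dim and differed by -0.36 (SE 0.09, limma adjusted p = 0.055), with Hgf at 0.23 (SE 0.07) and the plasminogen activator Plau at -0.19 (SE 0.07). Among 8 angiogenesis inhibitors 0 were called by limma, with 2 lower at an unadjusted p under 0.05, and the median was -0.07. The metalloproteinase inhibitors Timp3 (-0.41, SE 0.12) and Timp2 (-0.18, SE 0.07), the protease Adamts1 (0.17, SE 0.11) and thrombospondin Thbs1 (-0.15, SE 0.10) had limma adjusted p between 0.103 and 0.461.

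**Figure D5:**
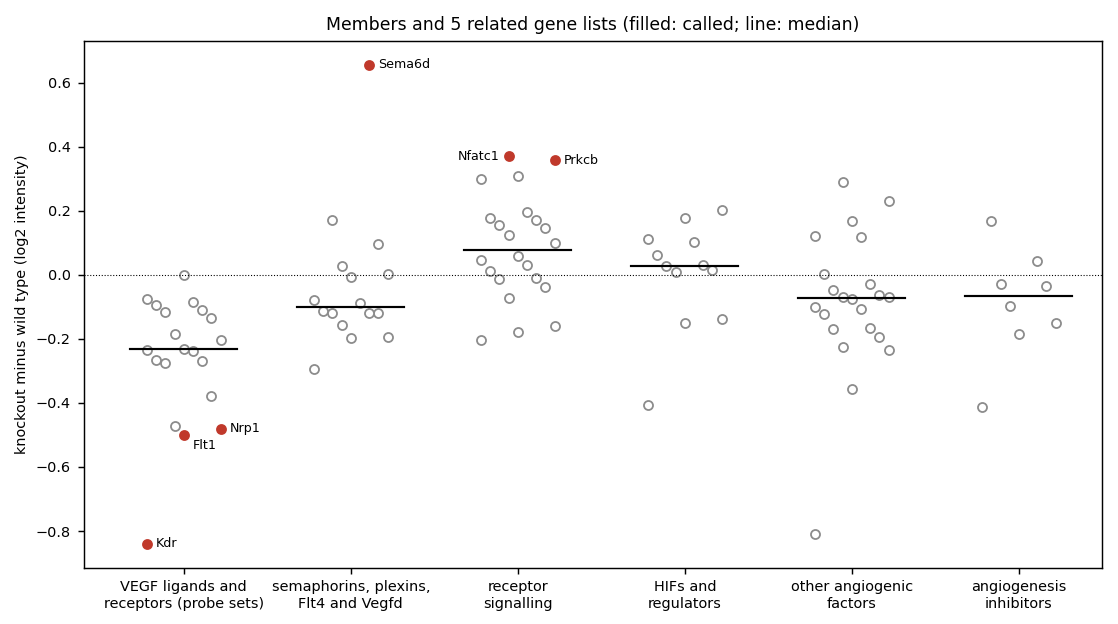
Difference between knockout and wild type (log2 intensity) for the 20 member probe sets and for the genes of 5 related lists, 1 point per probe set or gene, filled where called, with the median as a line. Kdr and Hbegf lie lowest; Sema6d, Nfatc1 and Prkcb are the called points above 0.

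The genes whose profiles over the 6 arrays were most like that of Kdr, among 5069 genes above the median level and at least as variable as the median probe set, were Car13 (Pearson r = 0.997), Ist1 (r = 0.997) and Rasgef1b (r = 0.997). All 3 were lower in knockout, with differences of -0.68, -0.32 and -0.76. An r of at least 0.95 was reached by 312 genes, and these profiles share the split of the 6 arrays into 2 genotypes, so the order among them describes these arrays only. For the brighter Vegfa probe set the closest were Gpat3 (r = 0.990), Rmi1 (r = 0.973) and Gpr35 (r = 0.966). Their genotypes overlapped, as those of Vegfa did, and 9 genes reached an r of 0.95.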

How the data were processed

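Total RNA was labelled with a 3' IVT kit and read on 6 Affymetrix arrays, per the labels' protocols. The authors deposited log2 intensities for 45101 probe sets. Per the submitters' processing notes, the tools were GCRMA 2.30.0, RMA, limma 3.14.4 and affy 1.36.1, with no roles stated. Whether GCRMA or RMA made the values is therefore unknown here, and they differ in how far dim signals are pulled down.

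After 64 control probe sets were left out, 45037 were tested with limma 3.58.1 in R 4.3.3 (lmFit, eBayes; prior degrees of freedom 5.04), knockout minus wild type, adjusted over all of them by Benjamini-Hochberg, at a threshold of 0.05. Symbols came from the platform annotation, updated through a RefSeq table: 34945 probe sets had 1 gene, 932 several and 9160 none named here. For lists, the brightest probe set stood for its gene; genes without one were not analysed here. From each list the 4 genes with the smallest p are named, while Flt4, Hif1a and the single markers named were picked with their values in view. The members and lists were chosen with earlier results of these data known. Levels are not ranked between probe sets. The fit was tested on simulated arrays. Permuting 3 against 3 arrays cannot give a two-sided p under 0.1, and p-values measure the spread between these samples only. The plots used matplotlib 3.10.9 (Python 3.11.15).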

Additional observations from a re-analysis of the deposited data

How the results depend on the processing

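The number of arrays limits every value here. Called probe sets over the whole array, 1691 as reported, were 71 with a floor at the 20th percentile, 2692 with above-median probe sets only, 3126 with a trend and robust prior, 92 with the replicate block and 3775 at an adjusted p under 0.1. Leaving out each array gave 40 to 1360. Called members, 3 as reported, were 0 with the floor, 5 with above-median probe sets only, 1 with the replicate block (Kdr) and 6 at an adjusted p under 0.1, and 0 to 3 when an array was left out. Receptor partners (1 as reported) and signalling genes (2 as reported) gave 0 calls each with the floor, with the replicate block and when a gene's probe sets were averaged, and 0 to 2 and 0 to 1 when an array was left out. Other angiogenic factors (0 as reported) gave 1 call with the trend and robust prior, 1 with array weights, 1 when a gene's probe sets were averaged and 2 at an adjusted p under 0.1. Angiogenesis inhibitors (0 as reported) gave 1 when a gene's probe sets were averaged, a setting that adjusts over genes. These 2 lists and the hypoxia list gave 0 calls each time an array was left out. The cause of these shifts was not tested. Vegfb turned to 0.0093 under median centring and lay between -0.0373 and 0.0437 when an array was left out, and the brighter Vegfa probe set between -0.162 and 0.0362. The other 18 member probe sets kept their sign in each alternative. Same-numbered cultures did not deviate together over all probe sets (r = -0.06, -0.04 and -0.13), so the replicate numbers were not taken as pairs.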

Other observations

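In the mouse annotation Kdr lies next to Kit and Pdgfra, which also code for receptor tyrosine kinases. Kit, the stem cell factor receptor, read 7.34, 7.83 and 7.57 in knockout, against 6.69, 7.17 and 7.11 in wild type, a difference of 0.59 (SE 0.15, limma adjusted p = 0.0669). Every knockout culture lay above every wild-type culture, opposite in direction to Kdr. Of all genes, 20.7% had knockout above wild type in this way. Pdgfra read 6.08 ± 0.18 in knockout and 6.41 ± 0.15 in wild type (SD, n = 3 each), with overlapping groups. On the other side, Srd5a3, Tmem165 and Clock differed by -0.06 (SE 0.06), 0.08 (SE 0.06) and 0.13 (SE 0.08) and did not pass. For Tmem165 and Clock, too, every knockout culture lay above every wild-type culture.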
